A study of Mus musculus with 6 samples.

Results

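Costimulation in H22 tumours was followed through 10 genes of the CD28 and tumour necrosis factor (TNF) receptor families, picked by symbol from the 21720 genes of the deposited table. They are the CD28-family receptors Cd28 and Icos, the B7 ligands Cd80 and Cd86, the receptor Cd40 with its ligand Cd40lg, and the TNF-receptor family members Tnfrsf4 (OX40), Tnfrsf9 (4-1BB), Tnfrsf18 (GITR) and Cd27. All 10 were found. The tumours were grown from H22, a mouse hepatocellular carcinoma line, under the skin of wild-type female BALB/c mice aged 6 to 8 weeks. Control mice received 0.5% carboxymethyl cellulose sodium and luteolin mice received 200 mg/kg of luteolin, a plant flavonoid, by gavage in 0.2 mL once a day for 21 days, from a tumour volume of about 50 mm3 according to the labels. RNA of whole tumours was sequenced in 3 libraries per group, and nothing states that the libraries of a group came from separate mice, so the p values measure only the spread between these libraries. The implanted cells are a single cell line in a host with its own immune cells.

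A T cell that meets its antigen needs a second signal to divide and persist. CD28 gives that signal when it binds CD80 or CD86 on an antigen-presenting cell, and ICOS, a relative of CD28, is put on the surface after activation. CD40 on dendritic cells, macrophages and B cells receives CD40 ligand from activated T cells and drives the presenting cell to make more CD80 and CD86, while OX40, 4-1BB, GITR and CD27 on T cells pass survival signals through TRAF adaptors.

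Library totals ranged from 61081637 to 80442954 estimated counts, and levels are given as CPM, counts scaled to a common library total with TMM factors. Where a group's libraries are given as a series, they stand in the order of replicates 1, 2 and 3. For a gene at 0 the counting limit is 3 counts, or 12 if each read pair stands for 4 units of the table, which covers counting error only. Among hepatoma markers Afp, the alpha-fetoprotein gene, stood at 56.5 ± 11.9 CPM in the control group and 37.7 ± 4.67 CPM after luteolin (SD, n = 3 each), and Gpc3, the glypican-3 gene, at 1.04 ± 0.358 and 6.90 ± 3.31 CPM, with each luteolin library above each control. Albumin (Alb) varied widely, at 21.4 ± 33.7 and 63.5 ± 59.9 CPM. Apoa1 had 0.568 ± 0.887 and 1.39 ± 1.46 CPM and Ttr 0.0669 ± 0.116 and 0.254 ± 0.136 CPM, both with overlapping groups, and Hnf4a, a hepatocyte factor, lay between 0 and 20 counts in every library. Every luteolin library carried genes of skin keratinocytes, luteolin replicate 3 the least. Krt14, at 0 counts in every control library, had 277 counts in luteolin replicate 3. The summed level of 10 keratinocyte markers was 389, 9412 and 16.5 CPM after luteolin against 4.44 to 5.21 in the control libraries, where 6 of the 10 were at 0 throughout. Of the 8 tested markers, 7 lay above every control in every luteolin library, where 15.9% of all tested genes did. Libraries also differed in base composition. Spearman's rho between a gene's GC content and a library's deviation from the 6-library average, over tested genes that are not independent replicates, was 0.422, -0.173 and -0.521 for the controls and -0.176, 0.433 and -0.356 for the luteolin libraries.

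Of the 10 genes, 9 passed the filter on low counts and Cd40lg did not. Adjusted p values come from the quasi-likelihood test of edgeR, corrected by Benjamini and Hochberg's method over all 14963 tested genes. Cd40 rose after luteolin at an adjusted p under 0.05, as did 1.34% of all tested genes, and 0 of the 9 were lower at that level (0.187% of all tested genes). The study itself called genes at an unadjusted p under 0.05 and more than a 2-fold change. At that level Cd28, Icos, Cd40, Tnfrsf4, Tnfrsf9 and Tnfrsf18 were up-regulated, 6 of the 9, where the share over all tested genes was 11.3%. At this threshold 0 of the 9 were down-regulated (1.52% of all tested genes), while 7 were higher and 0 lower at an unadjusted p under 0.05 alone, against 14% and 6.44% of all tested genes. In 7 of the 9 every luteolin library lay above every control library, a pattern that 15.9% of tested genes showed, and in 0 of the 9 they all lay below, a pattern of 12.8% of tested genes. Cd80 and Cd27 were the 2 that overlapped. The median log2 fold change of the 9 genes was 1.17, against -0.0073 over all tested genes. In bulk RNA, more cells of a type and more RNA per cell cannot be told apart.

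**Figure D1:**
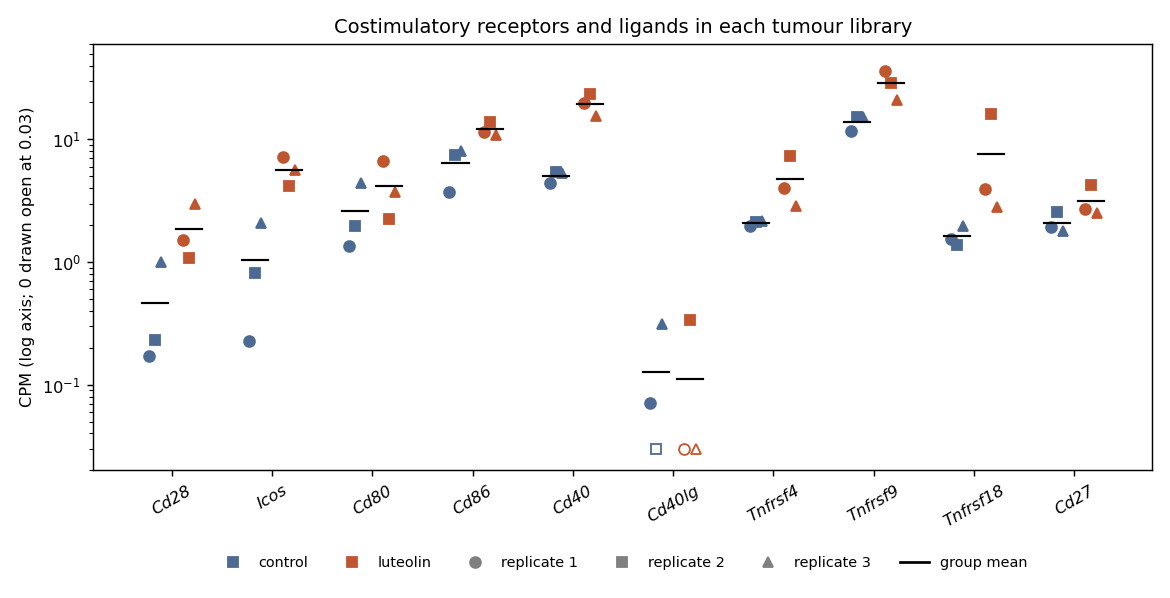
CPM of each gene (log axis) in the 3 control and 3 luteolin libraries, with the replicate number as the marker shape, the group mean as a bar and values of 0 as open markers at the foot of the axis. The luteolin libraries lie above all control libraries for 7 genes, among them Cd40 at 15.4 to 23.3 CPM against 4.45 to 5.41, and overlap with them for Cd80, Cd27 and Cd40lg.

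Cd28, the founding receptor of the family, was among the scarcest of these transcripts. It had 12, 15 and 64 counts in the controls and 92, 90 and 189 after luteolin, which is 0.172, 0.232 and 0.992 CPM against 1.502, 1.08 and 2.96 CPM. The luteolin libraries all lay above the controls, but control replicate 3 nearly reached luteolin replicate 2. The log2 fold change was 1.98 (95% interval 0.02 to 3.95), with an adjusted p of 0.24 in edgeR's test and an unadjusted p of 0.0482. The gene stayed at the study's threshold without luteolin replicate 2 or without control replicate 3, where the log2 fold change was 2.28 and 3.18, and left it without any other library, at 1.44 without luteolin replicate 3 and 1.59 without control replicate 1. It also left the threshold with RLE scaling (1.97, unadjusted p = 0.0505 in edgeR's test).

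Icos lies on chromosome 1 on the same strand as Cd28, with 204.6 kb between the genes (Cd28 chr1:60716800-60773359, Icos chr1:60977927-61000320, GRCm38). It had 0.229, 0.819 and 2.08 CPM in the controls and 7.14, 4.18 and 5.62 after luteolin. Here the lowest luteolin library stood clear of the highest control. Its log2 fold change of 2.44 (95% interval 0.61 to 4.26, edgeR's adjusted p = 0.155) was the largest of the 9 genes, and it was 1.95 without control replicate 1, 2.29 without control replicate 2 (unadjusted p = 0.0609, short of the study's threshold) and 3.42 without control replicate 3. Icos and Cd28 were both highest among the controls in control replicate 3, and so were Cd80 and Cd86. The longest transcripts of these 4 genes hold 41.2% (Cd28) to 43.2% (Cd86) G and C, and control replicate 3 is the library with the most negative correlation with GC content. Control replicate 3 was the highest control for 7 of the 9 tested genes, among them Tnfrsf4 and Tnfrsf18 with 54.9% and 55.7% G and C. The part of GC content in these levels was not tested. With offsets for GC content and gene length the log2 fold changes of Cd28 and Icos were 2.23 and 2.65, and edgeR gave adjusted p values of 0.0901 and 0.057.

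T-cell markers were also higher after luteolin, and their summed level ranked the luteolin libraries differently from Cd28 and Icos. All 10 genes of a T-cell marker list lay above every control library in every luteolin library, where 15.9% of all tested genes did. None of the 10 was at 0 in any library. Their summed level was 33.4 to 37.5 CPM in the control group and 109 to 221 CPM after luteolin. The sum was highest in luteolin replicate 2, where Cd28 and Icos were lowest of the luteolin libraries. Cd8a was also lowest there, with 11.3, 9.43 and 10.6 CPM in the luteolin libraries, while each other gene of the list was highest there. Thy1 and Cd4, the most abundant of the list, had 20.95 ± 1.29 and 3.68 ± 1.12 CPM in controls, and 87.9 ± 41.5 and 11.4 ± 5.43 CPM after luteolin (SD, n = 3 each). Per unit of Cd3 transcripts, the libraries of the groups overlapped for Cd28 and for Icos.

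Cd80 and Cd86 encode the B7 ligands that CD28 shares with the inhibitory receptor CTLA-4. Cd86 (chr16:36603869-36666081) and Cd80 (chr16:38455561-38496335) lie on the same chromosome, 1789.5 kb apart and on opposite strands. Cd86 had 3.74, 7.40 and 8.11 CPM in the controls and 11.5, 13.8 and 10.9 after luteolin. The luteolin libraries were all higher, and control replicate 1 was the low one. The log2 fold change of 0.91 (95% interval 0.09 to 1.74, edgeR's adjusted p = 0.207) fell short of both thresholds, and it was 0.61 without control replicate 1. It was past the study's threshold without control replicate 3 (1.11) and with offsets for GC content and length (1.08). Cd80 had 1.36, 1.98 and 4.42 CPM in the control libraries and 6.66, 2.24 and 3.69 after luteolin. The groups overlapped, since control replicate 3 exceeded luteolin replicates 2 and 3. Its log2 fold change was 0.70 (95% interval -0.73 to 2.13, edgeR's adjusted p = 0.578), and limma's voom with sample quality weights gave 1.42 with an adjusted p of 0.0387. Without luteolin replicate 1 it was 0.20, and without control replicate 3 it was 1.33.

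The stretch before the RefSeq start of Cd80 (chr16:38458683-38458932, GRCm38.p6, plus strand) is shown because Cd80 is the B7 ligand whose libraries overlapped. This stretch lies inside the gene as GENCODE annotates it (chr16:38455561-38496335). It was searched on both strands for a form of the NF-κB site, which is GGG, 2 bases of any kind and TTTCC, and for TGANTCA, a form of the AP-1 site. The capitals mark its TGANTCA match, whose first base lies 42 bases before the start.
Cd80: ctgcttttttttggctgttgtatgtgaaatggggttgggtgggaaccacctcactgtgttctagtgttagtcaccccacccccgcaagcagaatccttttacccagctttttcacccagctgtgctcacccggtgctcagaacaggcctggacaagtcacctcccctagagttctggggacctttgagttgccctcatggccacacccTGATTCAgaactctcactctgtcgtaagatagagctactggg
Of 32851 RefSeq windows of 250 bases before a start, 6.75% held TGANTCA and 1.41% held the NF-κB form. Windows were at hand for 5 of the 10 genes (Cd27, Cd80, Tnfrsf4, Tnfrsf9 and Tnfrsf18), 6 windows in all.

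Cd40 (chr2:165055627-165072948, plus strand), the receptor through which T cells license presenting cells, had the smallest p of the set. It had 4.45, 5.41 and 5.33 CPM in the controls and 19.95, 23.3 and 15.4 CPM after luteolin. The control libraries lay close together and the lowest luteolin library stood far above them. The group levels were 5.06 ± 0.532 and 19.6 ± 3.97 CPM (SD, n = 3 each), a 3.86-fold difference (95% interval 2.54 to 5.87). On the log2 scale this was 1.95 with a standard error of 0.26 (edgeR's adjusted p = 0.0331), and it lay between 1.62 and 2.04 under all 16 alternatives, each of which kept the study's threshold. With 1 library left out, the adjusted call was lost without control replicate 1, 2 or 3 (edgeR's adjusted p = 0.149, 0.207 and 0.148). It was also lost without luteolin replicate 1 (adjusted p = 0.126). In these settings edgeR gave 0 of all genes an adjusted p under 0.05 and 1907 to 2462 genes an unadjusted p under 0.05. The call was kept without luteolin replicate 2 (log2 fold change 1.82, edgeR's adjusted p = 0.0268) or luteolin replicate 3 (2.04, adjusted p = 0.0389). With luteolin replicate 3 alone against the controls the log2 fold change was 1.62.

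Cd40lg, the ligand of CD40, stayed near the limit of detection. It had 5, 0 and 20 counts in the controls and 0, 28 and 0 counts after luteolin. Both groups hold libraries at 0, and no fold change or p is given. A difference in Cd40lg was not detectable at this depth.

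Markers of cells that carry CD40, CD80 and CD86 moved as well. Of 10 macrophage and monocyte markers, 7 lay above every control in every luteolin library, where 15.9% of all tested genes did. Their summed level was 984 to 1157 CPM in the control group and 1535 to 2309 CPM after luteolin, and none was at 0. Of 10 dendritic cell markers, 7 lay above every control, and again none was at 0. They summed to 135 to 149 CPM against 215 to 327 CPM, with Itgax as the largest part (87.7 ± 2.39 and 194 ± 59.0 CPM, SD, n = 3 each). Zbtb46 of this list (30.5 ± 5.02 and 24.4 ± 3.17 CPM) had a lower mean after luteolin, with overlapping groups. The same held for Cx3cr1 of the macrophage list (11.1 ± 3.72 and 5.38 ± 3.51 CPM). Of 5 B-cell markers, 2 lay above every control. Their sum was 2.70 to 4.90 CPM against 6.63 to 25.1 CPM, with Ms4a1 at 0 in control replicate 2 and Pax5 at 0 in luteolin replicate 1. The part of B-cell number in the Cd40 level was not tested.

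**Figure D2:**
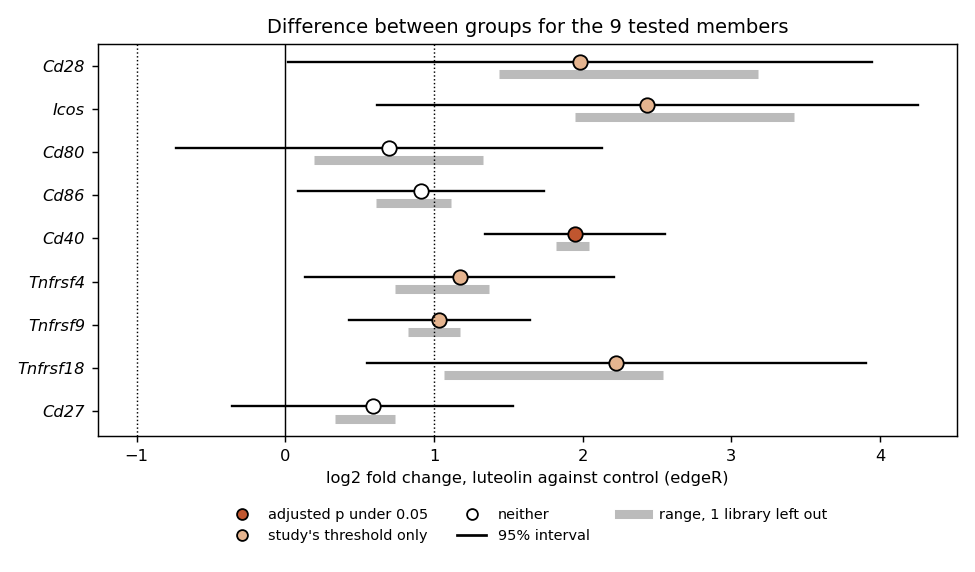
log2 fold change of luteolin against control for the 9 tested genes (points, filled by the threshold they pass), with the 95% interval of edgeR's fit as a line and the range with each library left out in turn as a grey bar. Cd40 has the narrowest interval among the genes with a log2 fold change above 1.9, from 1.34 to 2.55, and the interval of Cd80 and of Cd27 includes 0.

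Tnfrsf9, the gene of 4-1BB, a receptor put on T cells after activation, was the most abundant of the set. It had 11.6, 15.1 and 15.2 CPM in the controls and 36.3, 28.6 and 21.1 CPM after luteolin. The groups did not overlap, and luteolin replicate 1 was highest. The log2 fold change was 1.03 (95% interval 0.43 to 1.64, edgeR's adjusted p = 0.0998), just past the fold change of the study's threshold, and it lay under that fold change without luteolin replicate 1 (0.83), without control replicate 1 (0.89) and with luteolin replicate 3 alone against the controls (0.61, unadjusted p = 0.0915 in edgeR's test). With offsets for GC content and length it was 1.02 with an adjusted p of 0.0475.

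Tnfrsf9 is listed in RefSeq with 2 starts, and the window of the second is the one among the 6 windows that held an NF-κB form. Stretches of 30 bases around its matches are shown because this is the most abundant gene of the set. They lie on the plus strand of chromosome 4 (chr4:150927946-150927975 and chr4:150927969-150927998, GRCm38.p6), outside the longest part of that window that no exon annotated by GENCODE overlaps. Both stretches lie inside the gene as GENCODE annotates it (chr4:150914562-150946102). The capitals mark the NF-κB form in the first and TGANTCA in the second, 43 and 15 bases before the start.
Tnfrsf9 NF-κB form: cagagcagctGGGGATTTCCcaggaggccc
Tnfrsf9 AP-1 form: gaggccctgctcagtTGAGTCAcaggtcct
A match describes the letters and says nothing of a factor bound there.

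Tnfrsf4 (chr4:156013843-156016612) and Tnfrsf18 (chr4:156026164-156028895) are neighbours on the plus strand of chromosome 4, with 9.6 kb between them, and encode OX40 and GITR, receptors found on activated and regulatory T cells. Tnfrsf4 had 1.98, 2.13 and 2.17 CPM in the control libraries and 4.05, 7.27 and 2.85 CPM after luteolin. Tnfrsf18 had 1.55, 1.39 and 1.99 CPM in the control libraries and 3.95, 16.2 and 2.83 CPM after luteolin. For both genes each luteolin library exceeded each control, and luteolin replicate 2 was highest. That library also had the largest keratinocyte marker sum, 9412 CPM against 389 and 16.5 CPM in luteolin replicates 1 and 3. The part of skin cells in the levels of Tnfrsf4 and Tnfrsf18 was not tested. The stretches before their RefSeq starts, as far as no annotated exon overlaps them, are shown side by side because these neighbours had the most similar profile of any pair in the set (Pearson r = 0.983 of log2 CPM over the 6 libraries, given as a description). They hold neither of the 2 motifs, and the second ends 158 bases before its start (chr4:156013611-156013694 and chr4:156026072-156026163, GRCm38.p6, plus strand).
Tnfrsf4: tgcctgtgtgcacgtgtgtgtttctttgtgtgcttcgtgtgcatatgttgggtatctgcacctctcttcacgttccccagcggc
Tnfrsf18: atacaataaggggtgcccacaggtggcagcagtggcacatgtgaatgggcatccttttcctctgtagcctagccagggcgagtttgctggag

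The log2 fold change was 1.17 for Tnfrsf4 (95% interval 0.14 to 2.21, edgeR's adjusted p = 0.2). It was 0.74 without luteolin replicate 2 and lost the study's threshold with any single library left out except luteolin replicate 3. Tnfrsf18 had a log2 fold change of 2.23 (95% interval 0.55 to 3.90, edgeR's adjusted p = 0.157), and of 1.07 without luteolin replicate 2, where it kept the study's threshold (unadjusted p = 0.0266). It lost that threshold without control replicate 1 or 2 (unadjusted p = 0.0531 and 0.055 in edgeR's test). With luteolin replicate 3 alone against the controls the values were 0.46 and 0.80. Their longest transcripts hold 54.9% and 55.7% G and C, the highest of the 10 genes. Luteolin replicate 2 (0.433) and control replicate 1 (0.422) are the libraries with a positive correlation with GC content. In control replicate 1 Tnfrsf4 had 1.98 CPM and Tnfrsf18 had 1.55 CPM. The part of GC content in these levels was not tested. With offsets for GC content and length the log2 fold changes were 0.91 for Tnfrsf4 and 1.85 for Tnfrsf18, the first below the study's threshold. Regulatory T-cell markers stood beside them. All 5 markers of that list lay above every control in every luteolin library, where 15.9% of all tested genes did. None of the 5 was at 0, and their summed level was 20.2, 41.5 and 20.2 CPM after luteolin against 6.38 to 8.78 CPM in the controls. Among them Il2ra, the IL-2 receptor alpha chain, rose (log2 fold change 2.22, edgeR's adjusted p = 0.0487), and Ikzf2, the gene of Helios, had 1.96 with an adjusted p of 0.137. The part of regulatory T cells in the Tnfrsf4 and Tnfrsf18 levels was not tested.

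Cd27, carried by resting T cells as well as activated ones, had the smallest log2 fold change of the 9 genes. It had 1.92, 2.58 and 1.80 CPM in the control libraries and 2.69, 4.24 and 2.54 CPM after luteolin. Control replicate 2 exceeded luteolin replicate 3, so the groups overlapped. The log2 fold change of 0.59 (95% interval -0.36 to 1.53, edgeR's adjusted p = 0.469) passed neither threshold in any of the 16 alternatives.

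Levels of different genes were compared per kilobase of annotated exons. In the control group Tnfrsf9 stood first with 5.14 ± 0.751 CPM per kb (SD, n = 3), above every library of each other gene. Cd86 (1.75 ± 0.641), Tnfrsf4 (1.53 ± 0.076) and Cd40 (1.49 ± 0.156) followed with overlapping ranges. Tnfrsf18 (1.08 ± 0.202), Cd27 (0.901 ± 0.181) and Cd80 (0.698 ± 0.437) also overlapped from neighbour to neighbour, and Icos (0.304 ± 0.275), Cd40lg (0.102 ± 0.13) and Cd28 (0.076 ± 0.0747) closed the order, again overlapping. The lowest Cd40 library (1.307) lay just above the highest Tnfrsf18 library (1.302). In the luteolin group Tnfrsf9 again had the highest mean, 10.5 ± 2.81 CPM per kb, although in luteolin replicate 2 Tnfrsf18 was slightly higher (10.66 against 10.51). Cd40 had the next mean at 5.74 ± 1.16, in every luteolin library below the lowest Tnfrsf9 library. Tnfrsf18 (5.04 ± 4.88), Tnfrsf4 (3.46 ± 1.67) and Cd86 (3.30 ± 0.425) overlapped with their neighbours. Icos followed at 1.65 ± 0.431, below the lowest Cd86 library, then Cd27 (1.36 ± 0.404) and Cd80 (1.13 ± 0.609), which overlapped with it. Cd28 lay below the lowest Cd80 library at 0.301 ± 0.161, beside Cd40lg at 0.0894 ± 0.155. For scale, the T-cell receptor gene Cd3e had 0.419 ± 0.0654 CPM per kb in the control group and 1.79 ± 0.993 after luteolin, so that Tnfrsf9 was the higher of the pair in each of the 6 libraries.

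Each gene was also set against markers of the cells that usually carry it, Cd3d, Cd3e and Cd3g for the T-cell receptors and Csf1r, Adgre1, Cd68 and Itgax for Cd40, Cd80 and Cd86. How much of each gene's RNA came from those cells was not tested, and Tnfrsf9 exceeded the summed Cd3 genes in every control library. The Cd3 sum was 4.69, 5.38 and 4.404 CPM in the controls and 14.5, 35.2 and 16.9 CPM after luteolin. The myeloid sum was 317 to 358 CPM in the control group and 520 to 749 CPM after luteolin. Of the 9 genes, 4 had a higher mean ratio after luteolin and 5 a lower one. The share of all genes whose ratios to these markers do not overlap between the groups was not determined. An exact two-sided permutation test of 3 libraries against 3 cannot go below p = 0.1, and the adjusted p over the 9 ratios was 0.3 at the lowest.

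Cd40 was the 1 gene of the 9 with a higher ratio in every luteolin library than in any control. It had 1.24, 1.70 and 1.59 CPM per 100 CPM of myeloid markers in the controls and 3.84, 3.11 and 2.26 after luteolin. The groups did not overlap (log2 difference 1.00, exact permutation p = 0.1, adjusted p = 0.3), and the difference lay between 0.743 and 1.204 with other markers, another pseudocount or a library left out. Cd86 and Cd80 differed by 0.05 and -0.20 on the log2 scale (exact permutation p = 1 and 0.7), with overlapping groups and either sign among the alternatives.

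Of the genes set against Cd3, Cd27 and Tnfrsf4 lay lower without overlap. Their own log2 fold changes were 0.59 and 1.17, against 2.11, 2.09 and 2.33 for Cd3d, Cd3e and Cd3g. The ratio falls for any gene that rose less than the Cd3 sum. Cd27 had 40.9, 47.99 and 40.9 CPM per 100 CPM of Cd3 genes in the controls and 18.6, 12.02 and 15 after luteolin, with every luteolin library below every control (log2 difference -1.52, exact permutation p = 0.1, adjusted p = 0.3). Tnfrsf4 had 42.1, 39.7 and 49.3 against 28.0, 20.6 and 16.9, again without overlap (log2 difference -1.03, exact permutation p = 0.1, adjusted p = 0.3). Tnfrsf9 had 248, 281 and 346 against 252, 81.2 and 125, where luteolin replicate 1 lay within the control range (log2 difference -1.08, exact permutation p = 0.2, adjusted p = 0.45). These 3 genes kept the lower ratio under all 9 alternatives, although the difference shrank to -0.62, -0.13 and -0.18 with Ptprc, the gene of CD45 on all leukocytes, as the denominator. Tnfrsf18, Icos and Cd28 overlapped between the groups (log2 differences -0.29, 0.82 and 0.22, exact permutation p = 0.7, 0.6 and 1). Cd28 changed sign in 4 of 9 alternatives, and Tnfrsf18 in 2 of 9.

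**Figure D3:**
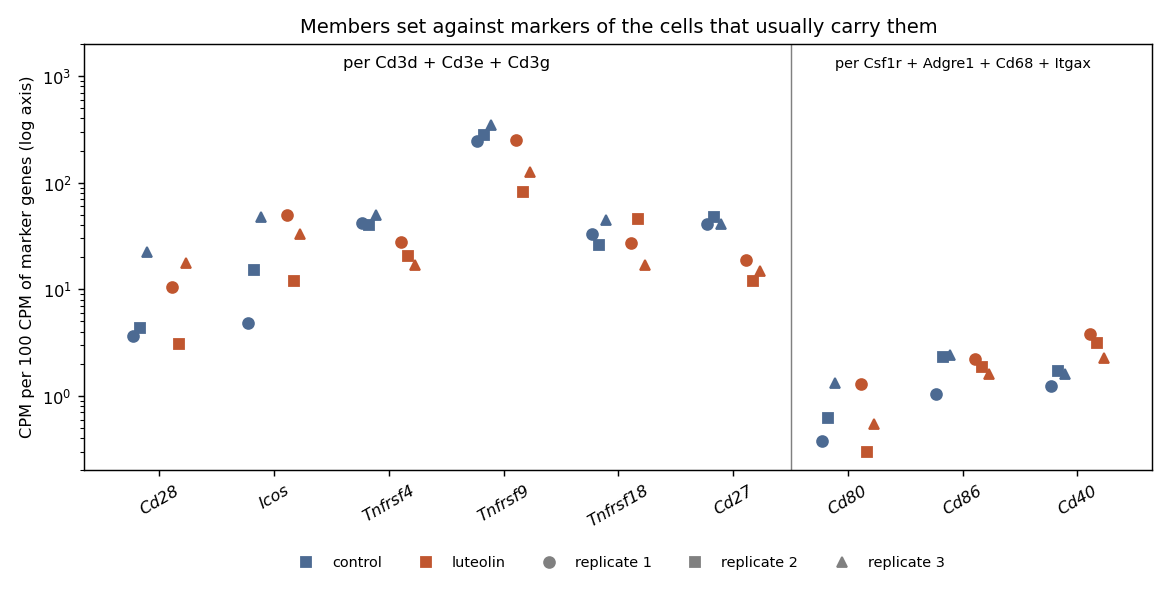
CPM of each gene per 100 CPM of marker genes (log axis) in each library, with Cd3d, Cd3e and Cd3g as the denominator on the left and Csf1r, Adgre1, Cd68 and Itgax on the right. For Cd27 and Tnfrsf4 all luteolin points lie below all control points, and for Cd40 they lie above, from 2.26 to 3.84 against 1.24 to 1.70.

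The partner ligands of the TNF-receptor members and of ICOS were mostly scarce. Cd70, the ligand of CD27, was at 0 counts in all libraries but luteolin replicate 2, which had 12. Tnfsf4, the OX40 ligand, had 0, 4 and 21 counts in the control libraries and 20, 16 and 20 in the luteolin libraries, and Tnfsf18, the GITR ligand, had 0, 16 and 21 against 17, 8 and 8. The groups overlapped for both genes, and the counts were too low to tell a difference. The log2 fold change was 1.09 for Tnfsf4 (95% interval -1.90 to 4.08) and -0.20 for Tnfsf18 (95% interval -3.21 to 2.80). Tnfsf9, the 4-1BB ligand, had 0.415, 1.00 and 2.19 CPM in the controls and 1.47, 3.11 and 1.25 CPM after luteolin (log2 fold change 0.70, edgeR's adjusted p = 0.646). Icosl had 5.85 to 6.67 CPM in the control libraries and 4.8, 12.7 and 3.66 CPM after luteolin. The control libraries lie inside the luteolin range here. Of the 4 tested ligands, 0 passed either threshold, a count near the shares over all tested genes. Those were 1.34% higher and 0.187% lower at an adjusted p under 0.05, and 11.3% and 1.52% at the study's threshold. The receptors Icos, Tnfrsf4, Tnfrsf9 and Tnfrsf18 were each up-regulated at the study's threshold. The difference between receptors and ligands was not tested.

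Other genes of the pathway were read from 6 lists of 49 genes, of which 48 were tested. At an adjusted p under 0.05, 4 were higher (8.33%, against 1.34% of all tested genes) and 0 were lower (0.187% of all tested genes). At the study's threshold 16 were up-regulated (33.3%, against 11.3% of all tested genes). The median log2 fold change of the 48 was 0.94. In the other members of the CD28 and B7 families, 5 of 8 were up-regulated at the study's threshold, with Pdcd1lg2, the gene of PD-L2, rising with a log2 fold change of 1.57 (edgeR's adjusted p = 0.048) and Cd274, the gene of PD-L1, by 1.87 (adjusted p = 0.0292). Ctla4, which competes with Cd28 for the B7 ligands and was chosen after its values were seen, had 1.202, 1.95 and 2.23 CPM in the control libraries and 6.87, 9.42 and 5.98 CPM in the luteolin libraries (log2 fold change 2.05, edgeR's adjusted p = 0.0598). Of the other TNF-receptor family costimulators 3 of 6 were up-regulated at the study's threshold, with log2 fold changes of 1.68 for Tnfrsf14 (HVEM) and 1.71 for its ligand Tnfsf14 (LIGHT).

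Genes that act after the receptors were read from 2 of these lists. Of 12 genes that act after CD28, 4 were up-regulated at the study's threshold (11.3% of all tested genes were), and of these Vav1, a guanine nucleotide exchange factor, rose from 17.01 ± 0.964 CPM in the control group to 50.6 ± 16.7 CPM after luteolin (SD, n = 3 each, edgeR's adjusted p = 0.0437). In the list of TRAF adaptors and genes of the alternative NF-κB route, through which CD40, OX40 and 4-1BB signal, 1 of 10 was up-regulated, a share near the 11.3% of all tested genes. The median log2 fold change was 0.15 in this list and 0.77 in the CD28 signalling list, and the difference between the lists was not tested. The up-regulated gene was Traf3, an inhibitor of that route, with 5.65 to 7.77 CPM in the controls and 18.2, 29.0 and 11.8 CPM after luteolin (log2 fold change 1.58, edgeR's adjusted p = 0.0862). Traf2 had 109 to 123 CPM in the controls and 81.2 to 93.8 CPM in the luteolin libraries, without overlap (log2 fold change -0.38, edgeR's adjusted p = 0.187). Of 8 SLAM and CD2 family costimulators 3 were up-regulated at the study's threshold, with log2 fold changes of 2.24 for Cd2 and 1.998 for Cd244a and with edgeR's adjusted p at 0.0791 and 0.15. The lists were written with earlier results of these data known and carry no set test.

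**Figure D4:**
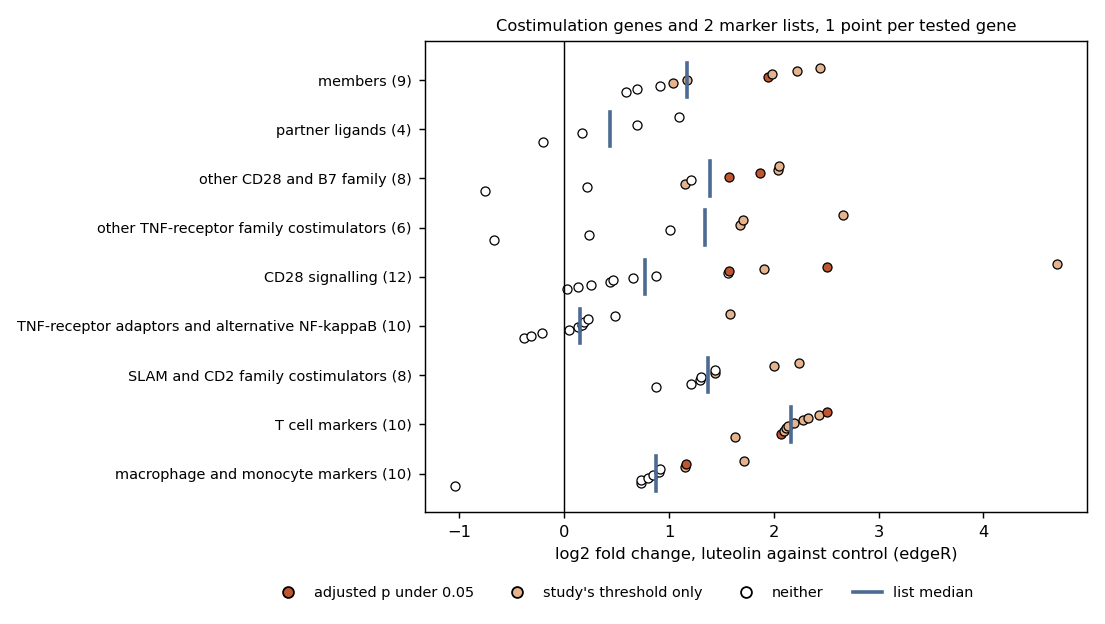
log2 fold change of luteolin against control for every tested gene of the costimulation lists and of 2 marker lists, 1 point per gene filled by the threshold it passes, with the list median as a bar and the number of tested genes in brackets. The 9 tested members have a median of 1.17, the TRAF and alternative NF-κB list lies near 0 with a median of 0.15, and the 10 T-cell markers lie between 1.63 and 2.51.

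Within the set, the libraries did not rank alike. Luteolin replicate 2 had the highest CPM for 5 of the 9 tested genes, luteolin replicate 1 for 3 and luteolin replicate 3 for 1, while control replicate 3 was the highest control for 7. Over the 6 libraries, which share the group difference, the genes outside the set with the profile of log2 CPM most like that of Cd28 were Smpdl3a (Pearson r = 0.991), Clec4n (r = 0.985) and Cxcr6 (r = 0.984). For Cd40 they were Id2 (r = 0.9986), Eml1 (r = 0.9978) and Serping1 (r = 0.9975). These correlations are descriptions over 6 points and carry no p.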

How the data were processed

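The authors deposited whole-number values for each gene symbol and library, not scaled between libraries, which were analysed as estimated counts because multiples of 4 made up 44.8% of values up to 40 (25% in an even spread). The submitters' processing notes name bcl2fastq 2.0, HISAT2, StringTie and DESeq2 and the builds mm39 and rn6, without roles. The table holds no positions, so coordinates, exon lengths and GC content came from GENCODE M21 and promoter windows from RefSeq, both on GRCm38. All 6 libraries and all columns of values were used (0 left out).

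Groups were compared in R 4.3.3 with edgeR 4.0.16 (TMM, filterByExpr, quasi-likelihood test, no covariates, two-sided) over 14963 genes. DESeq2 1.42.0, the study's tool, was run as an alternative, as were limma 3.58.1, other scalings and filters, a replicate block, values divided by 4, GC and length offsets (splines with 4 and 3 degrees of freedom) and each library left out. Luteolin replicate 3 alone against the controls was added after seeing the data. On simulated data edgeR recovered 64.6% of 198 genes changed 4-fold at an adjusted p under 0.05, with 5 unchanged genes called, and 91.4% at the study's threshold, with 313 unchanged genes called. Log2 CPM used a prior count of 2. Intervals and limits cover counting or library spread only.

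The 10 genes and the lists were chosen with earlier results of these data known. Named from the lists were genes with an adjusted p under 0.05 or, failing these, the 2 with the smallest p, and for marker lists the 2 with the highest mean. The partner ligands Icosl, Tnfsf18 and Cd70, and Gpc3, Apoa1, Ttr, Hnf4a, Cd3e, Cd8a, Cx3cr1, Ms4a1 and Pax5, were named outside this rule after their values were seen. Some genes of the lists that the rule would name are not reported here.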

Additional observations from a re-analysis of the deposited data

How the results depend on the processing

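The count of all genes higher and lower at an adjusted p under 0.05 (200 and 28) moved most. It was 1543 and 415 with DESeq2, 1886 and 1311 with voom, 345 and 47 with a minimum of 10 counts, 327 and 46 with values divided by 4, 656 and 230 with GC and length offsets, and 4 and 1 with luteolin replicate 3 alone, and with 1 library left out it ranged from 0 to 276 and from 0 to 36. At the study's threshold voom gave 498 lower genes and luteolin replicate 3 alone 772 higher genes, and with 1 library left out the counts ranged from 1139 to 2104 higher and from 140 to 305 lower. Of the 9 tested members, 4 were higher at an adjusted p under 0.05 with DESeq2 (Icos, Cd40, Tnfrsf9 and Tnfrsf18), 7 with voom, 2 with GC and length offsets (Cd40 and Tnfrsf9), 0 with luteolin replicate 3 alone and 0 to 1 with 1 library left out. At the study's threshold 3 were higher with luteolin replicate 3 alone and 2 to 6 with 1 library left out (2 without control replicate 1 or 2, and 3 without luteolin replicate 1). The pathway lists had 15 genes higher at an adjusted p under 0.05 with DESeq2 and 0 to 4 with 1 library left out, against 14 to 19 at the study's threshold. The number of members with a higher ratio to markers was 2 with 0.5 added to CPM and 2 to 5 with 1 library left out. No log2 fold change of a tested member changed sign. With RLE scaling 5 members were higher at the study's threshold, without Cd28. The causes of these shifts were not tested. Same-numbered libraries do not pair, with correlations of their deviations of -0.196, -0.092 and 0.063, and with the replicate number as a block 34 genes were higher and 1 lower at an adjusted p under 0.05, among them 0 members (Cd40 had an adjusted p of 0.0825 in edgeR's test). At the study's threshold 4 members were higher under the block, without Tnfrsf4 and Tnfrsf18.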

Other observations

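Genes of other cells that could stand beside the costimulatory genes were read from the remaining marker lists. Of 6 neutrophil markers, 4 were up-regulated at the study's threshold, where 11.3% of all tested genes were, and their summed level was 46.1 to 51.9 CPM in controls against 226, 229 and 122 CPM in luteolin replicates 1, 2 and 3, with Csf3r, the G-CSF receptor gene, at 14.3 ± 2.13 and 67.9 ± 40.4 CPM (SD, n = 3 each). Of 6 fibroblast markers 4 were up-regulated, from 1408 to 1575 CPM against 4067, 4976 and 2012 CPM, and of 5 endothelial markers 2 were, from 79.1 to 100 CPM against 156, 245 and 96.5 CPM. Of 5 NK-cell markers 4 were up-regulated, while Eomes, the most abundant of the list, had 82.0 ± 11.1 CPM in controls against 45.2 ± 8.05 CPM after luteolin (edgeR's adjusted p = 0.0842), and the list summed to 72.6 to 98.1 and 51.3 to 66.3 CPM. Of 5 tested hepatocyte and hepatoma markers 1 was up-regulated, with sums of 45.6 to 130 and 74.5 to 177 CPM. None of the 5 skeletal muscle and 4 tested adipocyte markers passed either threshold. Muscle markers summed to 382 to 940 CPM in the controls and 197 to 958 CPM in the luteolin libraries, and adipocyte markers to 13.8 to 58.7 and 15.01 to 233 CPM.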
